A study of Mus musculus with 27 samples.

Results

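Guanylate-binding proteins (GBPs) are large GTPases that cells make when interferon reaches them, above all interferon-gamma, and that then gather on the membranes of intracellular pathogens and on the vacuoles that hold them. Interferon receptors activate transcription factors, STAT2 and the IRF proteins among them, which bind short DNA motifs in the promoters of GBP genes. In the brain, GBP transcripts are usually scarce and are known to climb during infection and inflammation, in glia, endothelium and neurons. The genes followed here were those with the symbols Gbp2, Gbp3, Gbp4, Gbp5, Gbp6, Gbp7, Gbp8, Gbp9 and Gbp10 in the deposited count table, which gave 9 genes of 39338 listed, and all 9 passed the filter on low counts among 21768 genes tested.

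The study injected PHP.eB adeno-associated virus vectors into the motor cortex, sorted nuclei by EGFP-KASH, a green fluorescent protein held at the nuclear envelope, and sequenced their RNA, which gave 27 libraries from 27 mice. The vectors carried a CAG-driven RfxCas13d effector, an RNA-guided RNase, either with crRNA-13, a guide against the human C9ORF72 transcripts that hold the repeat expansion, or with a non-targeting guide (NTG), and mice labelled EGFP-KASH only served as a further control. C9-BACexp mice carry human C9ORF72 with an expanded repeat on a bacterial artificial chromosome in a C57BL/6J background, and C57BL/6J mice lack the human gene. The 6 groups were C9-BACexp with EGFP-KASH only (n = 3), NTG (n = 6) or crRNA-13 (n = 6), and C57BL/6J with EGFP-KASH only (n = 4), NTG (n = 5) or crRNA-13 (n = 3).

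All 27 mice thus received EGFP-KASH and an intracranial vector, and NTG and crRNA-13 mice were injected at 6 weeks of age and their nuclei collected 2 months later. The sources used here do not give these times for the EGFP-KASH only mice. The labels name the effector of the NTG groups as RfxCas13d, whereas the study's text names the engineered RfxCas13d-N2V8, and sex was balanced across groups but is not given per library. C9-BACexp is 1 transgenic line, and the human sequence that crRNA-13 targets is missing from C57BL/6J mice, so crRNA-13 lacked its intended target there.

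Totals ran from 21508829 to 36777972 counts per library. The human C9ORF72 transcript that served as a label check, variant V3, was at 0 in the 12 C57BL/6J libraries and was present in every C9-BACexp library, at 27.03 to 70.5 CPM (counts put on a common depth, with library totals scaled by the trimmed mean of M-values) with EGFP-KASH only, 25.1 to 32.9 with NTG and 9.34 to 31.5 with crRNA-13. Neuron markers summed to 5202 to 7141 CPM over the libraries, whereas oligodendrocyte markers reached 391 to 4842 CPM, so transcripts of glia were present as well.

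The mouse GBP genes lie in clusters on 2 chromosomes. In GRCm39 with the GENCODE annotation, the plus strand of chromosome 3 holds, between positions 142199739 and 142343779, Gbp5 (142199739 to 142228105), Gbp7 (142236044 to 142255910), Gbp3 (142265731 to 142278979), Gbp2b and Gbp2 (142326349 to 142343779). The minus strand of chromosome 5 holds, between 105162016 and 105494338, Gbp8 (105162016 to 105287452), Gbp9 (105224332 to 105287452), Gbp4 (105263633 to 105287609), Gbp10 (105362773 to 105412666), Gbp6 (105418568 to 105443751) and Gbp11. The annotated spans of Gbp8, Gbp9 and Gbp4 overlap each other on the same strand.

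These genes also share sequence, which bears on how reads were divided among them. Of the distinct 31-base words in GENCODE transcripts, 71.2% of those of Gbp10 and 62.0% of those of Gbp6 also occurred in another GBP gene, mostly each other. The share was 24.9% for Gbp8, 12.2% for Gbp4 and 10.9% for Gbp9, and at most 4.48% for Gbp2, Gbp3, Gbp5 and Gbp7. The division of reads between Gbp6 and Gbp10, and among Gbp4, Gbp8 and Gbp9, is therefore less certain than for the chromosome 3 members. The words were counted in spliced GENCODE transcripts, whereas the authors quantified reads on spliced and unspliced transcripts of an NCBI annotation. The shares in the sequences they used may therefore differ.

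RefSeq promoter sequences (GRCm38.p6) were at hand for 4 of the 9 members, those on chromosome 3; Gbp4, Gbp6, Gbp8, Gbp9 and Gbp10 had no entry. They are shown because the members varied together across libraries. Each line gives the 250 bases before the annotated start, on the plus strand, with capitals at matches to the interferon-stimulated response element (ISRE, searched as GAAANNGAAA on both strands) and to the gamma-activated site (GAS, searched as TTCNNNGAA, which reads the same on both strands). The windows are chr3:142620413-142620662 for Gbp2, chr3:142559794-142560043 for the first of the 2 annotated starts of Gbp3, chr3:142496684-142496933 for Gbp5 and chr3:142530086-142530335 for Gbp7.
Gbp2: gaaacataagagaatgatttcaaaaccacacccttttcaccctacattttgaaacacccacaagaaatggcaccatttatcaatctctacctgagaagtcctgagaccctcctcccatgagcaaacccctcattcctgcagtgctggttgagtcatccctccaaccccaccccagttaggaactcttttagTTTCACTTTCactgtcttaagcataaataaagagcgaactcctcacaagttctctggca
Gbp3: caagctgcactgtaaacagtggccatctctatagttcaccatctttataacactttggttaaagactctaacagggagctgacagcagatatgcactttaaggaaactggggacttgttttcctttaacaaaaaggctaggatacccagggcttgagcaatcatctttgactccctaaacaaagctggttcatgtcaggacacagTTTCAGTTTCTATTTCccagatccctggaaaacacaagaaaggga
Gbp5: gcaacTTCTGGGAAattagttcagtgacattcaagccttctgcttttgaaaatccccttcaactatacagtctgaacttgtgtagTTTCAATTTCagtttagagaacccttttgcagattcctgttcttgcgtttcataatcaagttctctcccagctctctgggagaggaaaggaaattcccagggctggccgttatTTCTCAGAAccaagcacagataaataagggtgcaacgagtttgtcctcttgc
Gbp7: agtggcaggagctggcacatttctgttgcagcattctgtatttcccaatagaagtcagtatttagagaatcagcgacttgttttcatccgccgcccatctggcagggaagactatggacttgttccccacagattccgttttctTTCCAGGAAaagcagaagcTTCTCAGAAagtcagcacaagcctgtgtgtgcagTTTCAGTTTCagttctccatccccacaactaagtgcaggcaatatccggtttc

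The ISRE letters began 59 bases before the start in Gbp2, 165 in Gbp5 and 53 in Gbp7, and 2 overlapping matches began 45 and 39 bases before the first start of Gbp3. The GAS letters began 245 and 52 bases before the start in Gbp5 and 106 and 87 bases before it in Gbp7. Neither motif occurred before the other start of Gbp3, and no GAS match was found before Gbp2. Among 32851 mouse promoter windows of the same length, 2.98% held an ISRE match and 7.02% a GAS match. These are letter matches and not measured binding sites.

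The family was nearly silent in most mice and high in a few. Summed over the 9 members, the 3 C57BL/6J libraries with crRNA-13 held 81.1, 17.4 and 266.1 CPM (replicates 1, 2 and 5, from 2571, 372 and 9767 counts). The 5 C57BL/6J libraries with NTG held 6.52, 38.8, 4.10, 8.22 and 6.99 CPM (replicates 1 to 5), and the 4 with EGFP-KASH only held 1.87, 2.37, 7.39 and 12.7 CPM. Replicate 5 with crRNA-13 stood far above all others, and replicate 2 with NTG was above replicate 2 with crRNA-13, so these groups overlapped.

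In C9-BACexp mice the same sum was 8.36, 84.8, 18.9, 29.0, 7.63 and 5.91 CPM in the 6 crRNA-13 libraries (replicates 1, 2, 3, 4, 6 and 7). The 6 NTG libraries lay between 4.77 and 9.42 CPM with a median of 6.11, and the 3 EGFP-KASH only libraries held 4.04, 3.89 and 5.82 CPM. Thus 3 of the 6 crRNA-13 libraries exceeded every control of their genotype and the other 3 lay within or near the control range.

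Ordered by the median of the sum, the groups ran from C57BL/6J with crRNA-13 (81.1 CPM), through C9-BACexp with crRNA-13 (13.6), C57BL/6J with NTG (6.99), C9-BACexp with NTG (6.11) and C57BL/6J with EGFP-KASH only (4.88), to C9-BACexp with EGFP-KASH only (4.04). The ranges of each pair of neighbours in this order overlapped. As means, C57BL/6J with crRNA-13 stood at 121.5 ± 129.2 CPM (SD, n = 3) and C9-BACexp with crRNA-13 at 25.8 ± 30.2 CPM (SD, n = 6), so that the SD exceeded the mean in both. In these bulk samples, more nuclei with the transcript and more transcript per nucleus cannot be told apart.

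**Figure D1:**
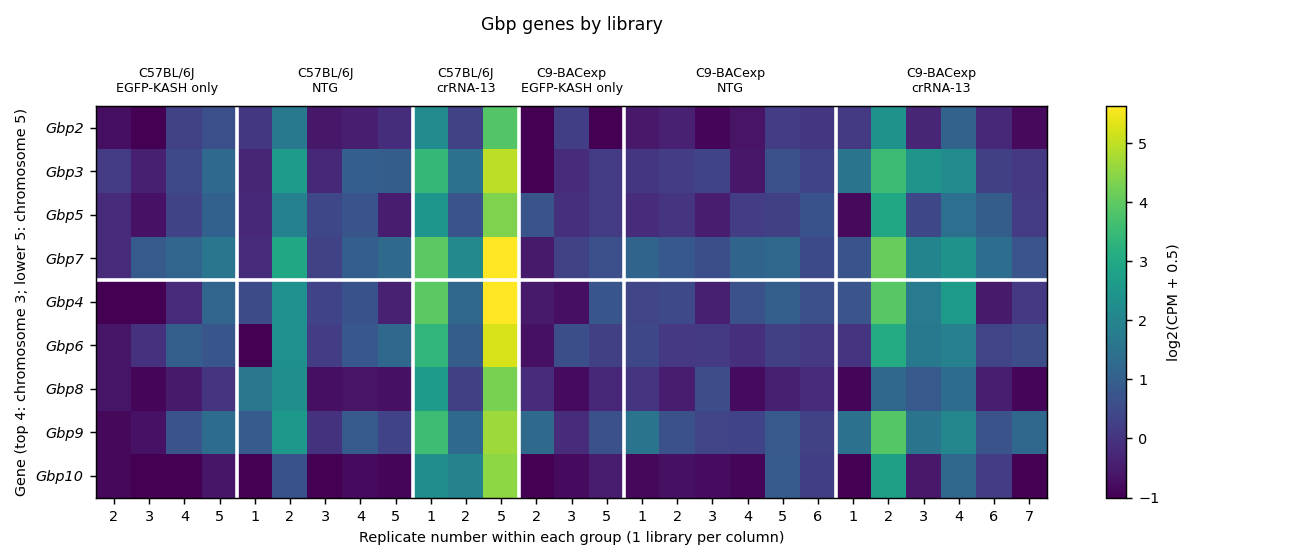
Level of each of the 9 Gbp genes (rows, chromosome 3 above chromosome 5) in each of the 27 libraries (columns, by group and replicate number), coloured by log2(CPM + 0.5). C57BL/6J crRNA-13 replicate 5 is the brightest column (266.1 CPM over the family), followed by C9-BACexp crRNA-13 replicate 2 (84.8) and C57BL/6J crRNA-13 replicate 1 (81.1).

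The members moved together from library to library. Over the 27 libraries, Pearson's r of log2(CPM + 0.5) between 2 members ran from 0.775 to 0.963 over the 36 pairs, with a median of 0.873. Without C57BL/6J crRNA-13 replicate 5 the range was 0.6251 to 0.942, and over the 18 libraries without crRNA-13 it was 0.225 to 0.872 with a median of 0.579. Gbp6 and Gbp7, which sit on different chromosomes, made the closest pair (0.963), and Gbp8 had the lowest mean r with the others (0.805). Libraries share depth, and members share sequence, so these values describe the libraries and carry no test.

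Gbp2 and Gbp5, together with Gbp2b, are the mouse GBPs that carry a lipid anchor attached by prenylation. Gbp2, which coats the Toxoplasma vacuole, was at 4.13, 0.746 and 14.1 CPM in C57BL/6J crRNA-13 replicates 1, 2 and 5. It was at 0.550, 2.72, 0.172, 0.238 and 0.413 CPM in the NTG libraries of that genotype and at 0.0958, 0, 0.742 and 1.03 CPM in its EGFP-KASH only libraries. The lowest crRNA-13 library lay inside both control ranges. In C9-BACexp, Gbp2 ran from 0.0638 to 4.73 CPM with crRNA-13 (median 0.473, n = 6) and from 0.0426 to 0.658 with NTG (median 0.226, n = 6), and 2 of the 3 EGFP-KASH only libraries had no count.

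Gbp5, which promotes assembly of the NLRP3 inflammasome, was at 5.14, 1.12 and 19.9 CPM in the C57BL/6J crRNA-13 libraries. The NTG libraries of that genotype held 0.353, 3.27, 0.861, 1.15 and 0.225 CPM, and the EGFP-KASH only libraries 0.383, 0.127, 0.775 and 1.60 CPM. Replicate 2 with crRNA-13 again lay among the controls. In C9-BACexp, Gbp5 ran from 0.0664 to 7.18 CPM with crRNA-13 (median 1.14), from 0.213 to 1.102 with NTG (median 0.573) and from 0.432 to 1.16 with EGFP-KASH only, so the lowest crRNA-13 library was below every control.

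Gbp3 and Gbp7, 2 further members of the chromosome 3 cluster that takes part in defence against Toxoplasma, had the same shape. Gbp3 held 10.1, 2.33 and 30.98 CPM with crRNA-13 in C57BL/6J, against 0.314, 5.82, 0.344, 1.49 and 1.43 CPM with NTG and 0.623, 0.254, 0.871 and 1.90 CPM with EGFP-KASH only. All 3 crRNA-13 libraries exceeded the EGFP-KASH only libraries, whereas NTG replicate 2 exceeded crRNA-13 replicate 2. In C9-BACexp, Gbp3 ran from 0.575 to 11.3 CPM with crRNA-13 (median 3.26), from 0.172 to 1.07 with NTG (median 0.702) and from 0 to 0.637 with EGFP-KASH only.

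Gbp7 held 15.1, 3.83 and 48.6 CPM with crRNA-13 in C57BL/6J, 0.393, 7.18, 0.723, 1.46 and 1.95 CPM with NTG, and 0.383, 1.36, 1.74 and 2.52 CPM with EGFP-KASH only. In C9-BACexp it ran from 1.16 to 16.6 CPM with crRNA-13 (median 2.82), from 0.912 to 1.85 with NTG (median 1.48) and from 0.200 to 1.03 with EGFP-KASH only. Gbp7 was the one member whose 6 C9-BACexp crRNA-13 libraries all exceeded the 3 EGFP-KASH only libraries, by a margin of 1.16 over 1.03 CPM.

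The chromosome 5 members lack the prenylation site. Gbp4 held 15.2, 1.87 and 49.2 CPM in the C57BL/6J crRNA-13 libraries, against 0.942, 4.49, 0.758, 1.09 and 0.263 CPM with NTG and 0, 0, 0.387 and 1.74 CPM with EGFP-KASH only. In C9-BACexp it ran from 0.194 to 14.6 CPM with crRNA-13 (median 1.97) and from 0.256 to 1.52 with NTG (median 0.948). Gbp4 thus spanned a wide range with crRNA-13, from below the NTG libraries to far above them.

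Gbp6 held 9.88, 1.45 and 37.2 CPM with crRNA-13 in C57BL/6J, against 0, 4.49, 0.654, 1.26 and 1.80 CPM with NTG and 0.144, 0.4659, 1.52 and 1.22 CPM with EGFP-KASH only. In C9-BACexp it ran from 0.498 to 7.92 CPM with crRNA-13 (median 1.84) and from 0.448 to 0.855 with NTG (median 0.583). Its NTG spread in C9-BACexp was narrow (0.623 ± 0.139 CPM, SD, n = 6), and the lowest crRNA-13 library lay within it.

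Gbp9 held 11.4, 1.91 and 24.6 CPM with crRNA-13 in C57BL/6J, against 1.37, 5.28, 0.482, 1.32 and 0.751 CPM with NTG and 0.0479, 0.127, 1.16 and 2.06 CPM with EGFP-KASH only. In C9-BACexp it ran from 1.12 to 14.3 CPM with crRNA-13 (median 2.39) and from 0.722 to 2.43 with NTG (median 0.934). Replicate 2 with crRNA-13 in C57BL/6J was below 1 library of each control group.

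Gbp8 held 5.81, 0.700 and 19.2 CPM with crRNA-13 in C57BL/6J, and was uneven already with NTG, at 2.59, 4.46, 0.103, 0.136 and 0.113 CPM. In C9-BACexp it ran from 0.0319 to 2.03 CPM with crRNA-13 (median 0.769) and from 0.0690 to 0.980 with NTG (median 0.313). Its highest C9-BACexp library was crRNA-13 replicate 4, not replicate 2, which held 1.87 CPM.

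Gbp10 stood out in C57BL/6J mice, where the crRNA-13 libraries held 4.35, 3.41 and 22.3 CPM, from 138, 73 and 817 counts. The NTG libraries held 0, 1.09, 0, 0.0679 and 0.0376 CPM, from 0, 32, 0, 2 and 1 counts, and the EGFP-KASH only libraries held 0.0479, 0, 0 and 0.163 CPM. No crRNA-13 library overlapped a control, and replicate 2, which was low for the other members, was only a little below replicate 1. However, 67.8% of the 31-base words of Gbp10 also occur in Gbp6. Gbp6 was at 1.45 CPM in crRNA-13 replicate 2 and at 4.49 CPM in NTG replicate 2. The separation of Gbp10 thus carries the uncertainty in how reads were divided between it and Gbp6. In C9-BACexp, Gbp10 was at 0, 6.30, 0.180, 1.81, 0.659 and 0 CPM with crRNA-13 and between 0.0345 and 1.36 CPM with NTG. A count of 0 in a library allows up to 0.0801 to 0.144 CPM, depending on its depth, for counting error only.

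**Figure D2:**
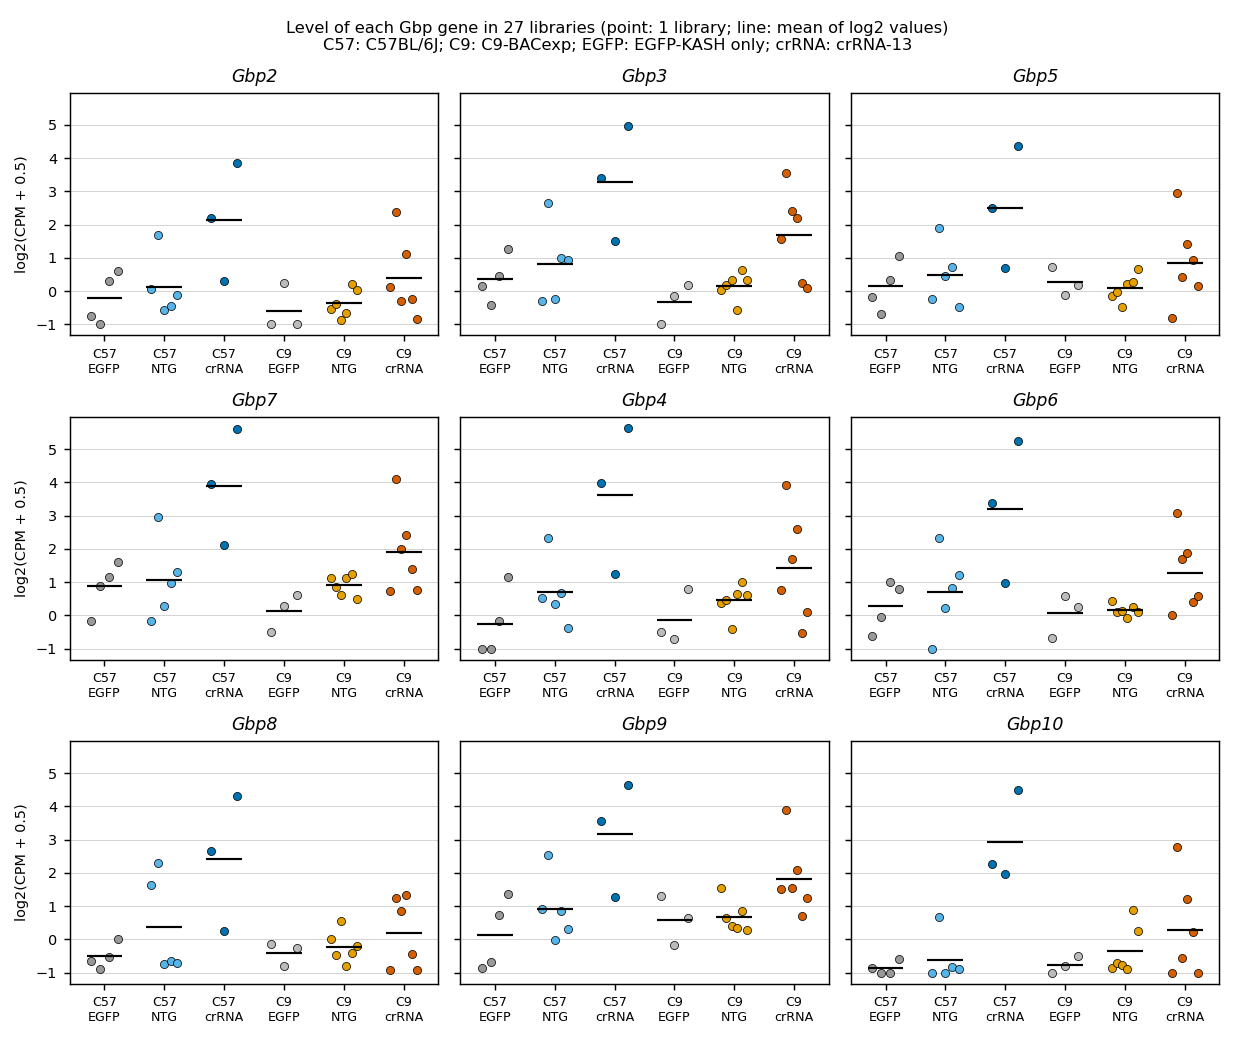
Level of each Gbp gene, as log2(CPM + 0.5), in each of the 27 libraries (points), by genotype and treatment. The black line is the group mean of the log2 values. For Gbp10 the 3 C57BL/6J crRNA-13 libraries (3.41 to 22.3 CPM) lie above every C57BL/6J control (0 to 1.09 CPM). The other members overlap NTG. Gbp10 shares 67.8% of its 31-base words with Gbp6, so the division of reads between them is uncertain.

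The comparison with NTG in C57BL/6J mice, where both arms carried an effector, asked how the guide crRNA-13 affects genes where its human target is absent. Against NTG, the fitted log2 fold change was positive for all 9 members, from 2.35 (Gbp2) to 6.89 (Gbp10), with a median of 2.97, beside a median of 0.00 over all genes. Without the factors Gbp2 stood at 2.94 ± 1.23 (SE) and Gbp10 at 5.35 ± 1.55. At the limits used for this comparison (a higher minimum fold and an adjusted p under 0.01), edgeR's quasi-likelihood test with 4 unwanted-variation factors called 0 of 9 members, and 0% of all genes. At an unadjusted p under 0.05, 8 of 9 members passed, as did 11.1% of all genes. At the looser limits (fold over 1.2 and adjusted p under 0.05) 3 members passed as higher, beside 0.312% of all genes, namely Gbp5 (log2 fold change 2.97 ± 0.57 SE, Benjamini-Hochberg adjusted p = 0.0319), Gbp7 (3.26 ± 0.62, 0.0316) and Gbp10 (6.89 ± 1.23, 0.0287).

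In edgeR these calls were lost without the factors. The members' log2 fold changes then had a median of 2.94 and edgeR's adjusted p ran from 0.338 to 0.989. It called 0 members at either set of limits, although 9 of 9 had an unadjusted p under 0.05 (4.81% of all genes). At the stricter limits DESeq2 without factors also called 0 of 9, with 0.00919% of all genes called. Its adjusted p for Gbp7 was 0.0394, under the 0.05 of the looser limits. The factors are estimated from the residuals of the same libraries, and the fourth had r = -0.597 with the family's mean level within groups. Gbp10 was the 1 member whose groups did not overlap, beside 1.51% of all genes that did not overlap in that direction. Its separation carries the uncertainty in how reads were divided between it and Gbp6.

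Single libraries moved the number called at the stricter limits, which was 0 in the full fit. For fits with a library left out, here and below, the share of all genes called is not given. Without C57BL/6J crRNA-13 replicate 5 the members' log2 fold changes ran from 1.28 to 5.88 with a median of 1.95. As in the full fit, 0 were called at the stricter limits, and the lowest adjusted p by edgeR was 0.0363. Without crRNA-13 replicate 2, 4 were called (Gbp5, Gbp6, Gbp7 and Gbp10), and without NTG replicate 2, 2 were called (Gbp7 and Gbp10). The direction was positive for every member in each of these fits.

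In C57BL/6J mice set against EGFP-KASH only, a contrast that shares the crRNA-13 libraries with the one above, 6 of 9 members rose with crRNA-13 at a fold over 1.2 and adjusted p under 0.05, beside 0.335% of all genes called higher. They were Gbp4, Gbp5, Gbp6, Gbp7, Gbp9 and Gbp10. Gbp5 had a log2 fold change of 3.53 ± 0.62 (SE; edgeR adjusted p = 0.0115), Gbp9 one of 4.53 ± 0.80 (adjusted p = 0.0119; 3.85 without factors) and Gbp10 one of 7.82 ± 1.38 (adjusted p = 0.0117). All 9 had an unadjusted p under 0.05, as did 11.2% of all genes. The median over the 9 members was 3.99, beside 0.01 over all genes, and the groups did not overlap for 5 members (Gbp3, Gbp4, Gbp7, Gbp8 and Gbp10), beside 2.58% of all genes.

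Of those 6 calls, 0 were made by edgeR without the factors, where the median was 3.96, whereas DESeq2 without factors called 7, all but Gbp2 and Gbp5 (0.413% of all genes). Without crRNA-13 replicate 5, 1 call was left (Gbp10), and 2 were left without EGFP-KASH only replicate 3 or without EGFP-KASH only replicate 4. Without crRNA-13 replicate 1, 4 calls were left. Over these fits and the 2 that left out EGFP-KASH only replicates 2 and 5, every member kept a positive log2 fold change, the lowest being 2.39.

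The control vectors themselves were compared next. NTG against EGFP-KASH only called 0 of 9 members in either genotype, with median log2 fold changes of 0.91 in C9-BACexp and 0.94 in C57BL/6J, and the percentage of all genes called was 0.0322% and 0%. At an unadjusted p under 0.05, 0 members passed in C9-BACexp and 3 in C57BL/6J (11.2% and 7.86% of all genes). DESeq2 without factors likewise called 0 members in both (0.124% and 0.0965% of all genes).

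Where the human target is present, crRNA-13 against NTG in C9-BACexp mice gave positive log2 fold changes for all 9 members, from 0.71 (Gbp10, 1.95 without factors) to 2.50 (Gbp3), with a median of 1.63. None of the 9 was called by edgeR, beside 0.482% of all genes called, and 7 had an unadjusted p under 0.05 (10.3% of all genes). DESeq2 without factors called 0 (0.216% of all genes). Gbp3 was nearest, at 2.50 ± 0.68 (SE) with an adjusted p of 0.0539, and without factors at an adjusted p of 0.403. Without C9-BACexp crRNA-13 replicate 2 the median was 1.03 and the values ran from -0.40 to 2.07, so that Gbp8 and Gbp10 turned negative, and 1 member (Gbp3) was called without replicate 1, 6 or 7 of that group.

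Against EGFP-KASH only in C9-BACexp, a comparison that shares its crRNA-13 libraries with the one before, 2 of 9 members rose with crRNA-13, beside 0.62% of all genes called higher. Gbp3 had a log2 fold change of 4.46 ± 1.12 (SE; edgeR adjusted p = 0.0357) and Gbp7 one of 2.74 ± 0.73 (adjusted p = 0.0484). The median over the 9 was 2.28, with all 9 positive and 6 at an unadjusted p under 0.05 (12.1% of all genes), and the groups did not overlap for 1 member, Gbp7, beside 0.854% of all genes.

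Both calls were lost without the factors (0 of 9), where Gbp3 stood at 3.48, whereas DESeq2 without factors called 1, Gbp3 (0.179% of all genes). They were also lost without crRNA-13 replicate 2, where the members' values ran from -0.02 to 3.96, and without any 1 of the 3 EGFP-KASH only libraries; without replicate 2 of these, Gbp10 stood at -1.11. Without crRNA-13 replicate 3 or 4, 1 call was left, Gbp3, and without crRNA-13 replicate 7, 3 were made.

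Between genotypes, all 9 members were lower in C9-BACexp than in C57BL/6J mice that both received crRNA-13, with log2 fold changes from -4.20 (Gbp10) to -1.41 (Gbp3) and a median of -2.17. Of these, 2 passed the test, beside 0.639% of all genes called lower. Gbp5 fell by 2.41 ± 0.54 (SE; edgeR adjusted p = 0.0172) and Gbp10 fell by 4.20 ± 0.98 (adjusted p = 0.0227) on the log2 scale. Without factors Gbp10 stood at -2.74 ± 1.31 (SE). The groups overlapped for every member (0.841% of all genes did not overlap in that direction), 8 members had an unadjusted p under 0.05 (12.5% of all genes), and without factors 0 were called by edgeR or by DESeq2 (0.23% of all genes by the latter).

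Replicate 5 of C57BL/6J with crRNA-13 weighed on this comparison as well: without it the median was -1.23 and 0 members were called. Without C9-BACexp crRNA-13 replicate 1, 0 were called as well. Without C57BL/6J crRNA-13 replicate 2, or C9-BACexp crRNA-13 replicate 2 or 3, 4 were called. Every member stayed negative in these fits.

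Between the same genotypes given NTG, 8 of 9 members had negative log2 fold changes with a median of -0.58, and 0 were called beside 6.59% of all genes. With EGFP-KASH only, 5 were positive and 4 negative with a median of 0.36, and 0 were called beside 2.86% of all genes. Without factors this median was -0.12, with 4 of 9 positive, so its sign depends on the factors. No member had an unadjusted p under 0.05 in either, where 26% and 19% of all genes did, and DESeq2 without factors called 0 of 9 in both (1.3% and 0.299% of all genes).

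Whether the crRNA-13 against NTG change differed between genotypes was tested as an interaction. All 9 differences were negative, that is, smaller in C9-BACexp, with a median of -1.48, and 0 were called, beside 0.00459% of all genes. The largest was that of Gbp10, at -6.18 ± 1.504 (SE) with an adjusted p of 0.165, against -3.39 ± 1.87 without factors, and 3 members had an unadjusted p under 0.05 (10.5% of all genes). DESeq2 without factors called 0 (0.0965% of all genes). Without C57BL/6J crRNA-13 replicate 5 the median was -0.47, and without C57BL/6J NTG replicate 3 1 member, Gbp10, was called.

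**Figure D3:**
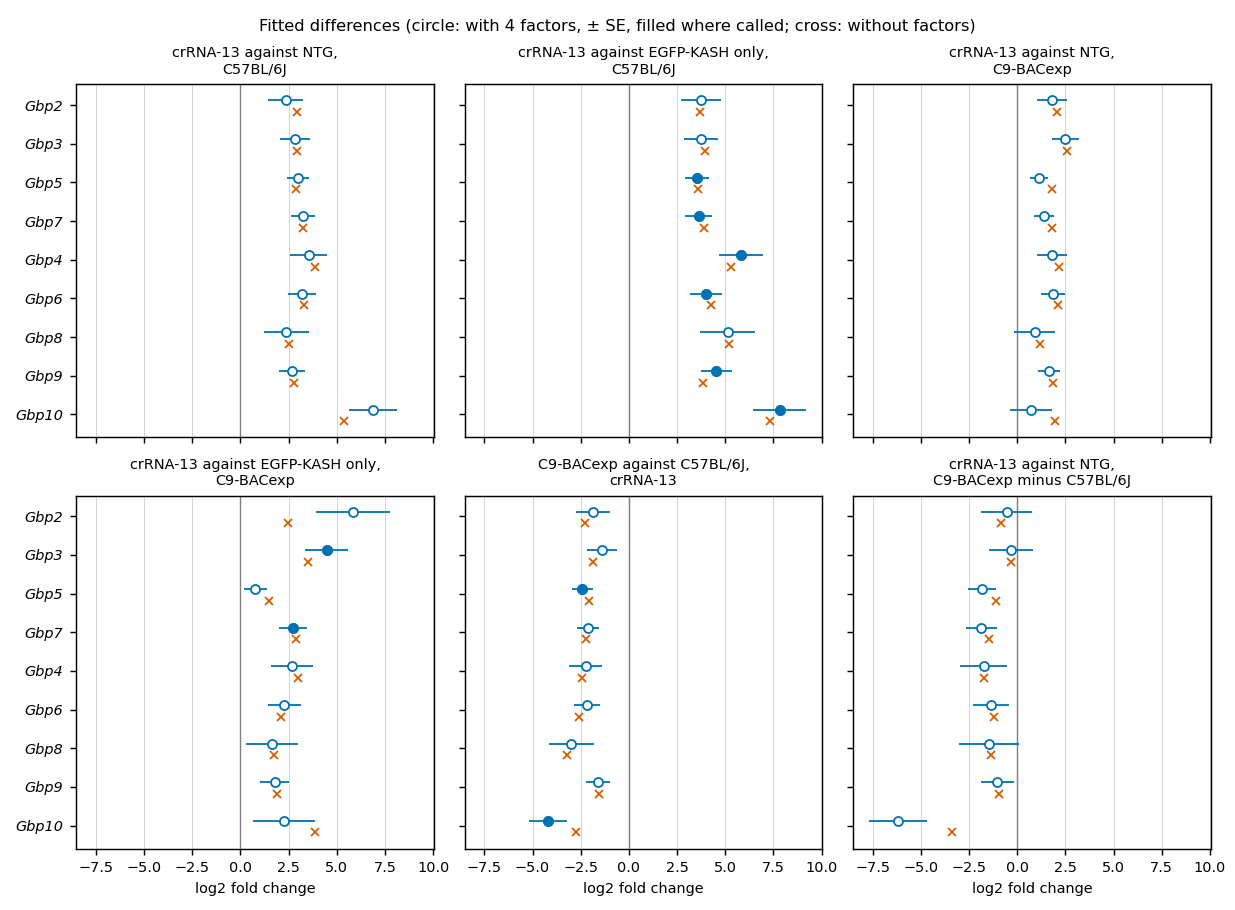
Fitted log2 fold change of each Gbp gene in 6 comparisons: circles with the 4 factors, with ± 1 SE, filled where called at the limits of that comparison, and crosses without factors. All 9 values are positive in the 4 comparisons of crRNA-13 with a control and negative in C9-BACexp against C57BL/6J with crRNA-13 and in the difference of the crRNA-13 against NTG change between genotypes; 6 members are called against EGFP-KASH only in C57BL/6J.

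The remaining mouse GBP genes in the table were Gbp2b and Gbp11. Gbp2b, the prenylated neighbour of Gbp2, had 0 counts in 26 libraries and 2 counts in C57BL/6J crRNA-13 replicate 5, and was not tested. Gbp11 differed between genotypes with NTG: it held 1.52 to 4.94 CPM in the 6 C9-BACexp NTG libraries and 0.276 to 1.02 CPM in the 5 C57BL/6J NTG libraries, which did not overlap, as for 1.43% of all genes in that direction. Its log2 fold change was 2.25 ± 0.44 (SE; edgeR adjusted p = 0.00652), beside 4.01% of all genes called higher, and its adjusted p without factors was 0.472. With EGFP-KASH only the genotypes overlapped, at 0, 2.30 and 1.73 CPM in C9-BACexp and 0.192 to 2.65 CPM in C57BL/6J, and the fitted value was -1.57 ± 0.73 (adjusted p = 0.298 by edgeR), against 0.024 without factors. Of its 31-base words, 34.7% occurred in another GBP gene, mostly Gbp8.

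The immunity-related GTPases, which act with GBPs on pathogen vacuoles, showed the same direction. Against NTG in C57BL/6J all 7 had positive log2 fold changes with a median of 3.44, and 0 were called at the stricter limits of that comparison. Irgm1, a regulator of the other members, was at 3.11 ± 0.57 (SE; edgeR adjusted p = 0.0287) and Irgm2 at 3.10 ± 0.68 (adjusted p = 0.0468). Both pass the looser limits that applied in C9-BACexp, beside 0.312% of all genes higher. Without factors their adjusted p by edgeR was 0.314 and 0.581. In C9-BACexp all 7 were positive with a median of 2.40 and 2 rose, Irgm2 (2.30, adjusted p = 0.0353) and Igtp (2.40, adjusted p = 0.0478), which are named after their values were seen; 0.243% of all genes were called higher, and without factors 0 of the 7 were. With crRNA-13 all 7 were lower in C9-BACexp, with a median of -1.71 and 0 called.

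Upstream of the family, transcripts of the 5 interferon genes examined were close to absent from these sorted nuclei. Other interferon genes, and cells that were not sorted, were not examined. Of Ifng, Ifnb1, Ifna4, Ifnk and Ifnl3, 0 of 5 passed the count filter, and Ifng did not exceed 0.0760 CPM in any library, nor Ifnb1 0.0775 CPM. The 7 interferon receptors and kinases had a median log2 fold change of 0.01 in C57BL/6J crRNA-13 against NTG, with 0 called; Ifnar1 was at -0.06 ± 0.07 (SE) and Ifngr1 at 0.22 ± 0.26.

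The 7 transcription factors of interferon signalling were all positive in that comparison, with a median of 1.45 and 0 called at its stricter limits. Stat2, a partner in the complex that carries the type I interferon signal, had a log2 fold change of 1.30 ± 0.25 (SE; edgeR adjusted p = 0.0351). It passes the looser limits used between genotypes, whereas without factors its adjusted p by edgeR was 0.2935. With crRNA-13, all 7 were lower in C9-BACexp than in C57BL/6J, with a median of -1.16. Of these, 3 were called, beside 0.639% of all genes called lower. Among the 3 were Irf1, which fell by 1.40, and Stat2, which fell by 0.97 on the log2 scale (edgeR adjusted p = 0.0315 and 0.0380). None of these 3 calls was made without factors.

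Among negative regulators of the pathway, 4 of 5 tested were positive in C57BL/6J crRNA-13 against NTG with a median of 0.59 and 0 called. Usp18, which shuts off the type I interferon receptor, was at 2.38 ± 0.94 (SE; adjusted p = 0.316 by edgeR). Downstream of GBPs, 6 of 8 inflammasome genes were tested, with a median of 0.71 and 0 called; Casp1 was at 1.71 ± 1.11 and Gsdmd at 1.40 ± 0.91 (SE). The 5 prenylation enzymes (median -0.03) and the 3 atlastins (median -0.12), GTPases related to GBPs that shape the endoplasmic reticulum, had 0 called.

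By the rule of highest Pearson's r with the mean of the 9 members on the log2(CPM + 0.5) scale, over 27 libraries and 13239 genes that averaged 1 CPM or more, the genes outside the family most like it included Tap1 (0.9725), Irf7 (0.964), Rnf213 (0.960), Parp14 (0.959) and Oas2 (0.957). The median r over those genes was 0.01. Without C57BL/6J crRNA-13 replicate 5, Tap1 (0.9615) and Irf7 (0.937) were again among the top 6. Tap1, a peptide transporter of antigen presentation, held 12.6, 2.99 and 35.8 CPM in C57BL/6J crRNA-13 replicates 1, 2 and 5 and between 0.344 and 6.13 CPM with NTG, which is the shape of the members.

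Marker transcripts of other cell types were present, and the marker lists were set beside the family. The 18 microglia markers summed to 70.4, 77.7 and 102.3 CPM in C57BL/6J crRNA-13 replicates 1, 2 and 5 and to 36.4 to 142.0 CPM in the NTG libraries of that genotype, so these groups overlapped. Their log2 fold changes were positive for 17 of 18, with a median of 0.61 and 0 called. Over the 27 libraries the family's mean level had r = 0.28 with the microglia sum, 0.31 with the astrocyte sum and -0.03 with the neuron sum.

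The 19 infiltrating immune cell markers in the table summed to 10.1 CPM in C57BL/6J crRNA-13 replicate 5 and to 7.40 CPM in C9-BACexp crRNA-13 replicate 2, both high in the family. They summed to 2.59 CPM in C57BL/6J crRNA-13 replicate 1, also high in the family, and to 0.746 CPM in replicate 2. In C9-BACexp with NTG, low in the family, 1 library (replicate 6) reached 8.74 CPM with 13 of the 19 at 0. The median of that group was 2.23 CPM. Across libraries r with the family was 0.55, and 0.35 without C57BL/6J crRNA-13 replicate 5. In that replicate 4 of the 19 were at 0, against 10 to 17 in the C57BL/6J NTG libraries. Detection differed between markers. Over all 27 libraries Cd3e, a T cell gene, was at 0 in 20 and Gzmb in 24. By contrast, Ptprc was at 0 in 0, Cd79a in 1, Cd4 in 2 and Itgax in 6. Ptprc by itself had r = 0.61 with the family, and 0.41 without C57BL/6J crRNA-13 replicate 5. The part of such cells in the family's level was not tested.

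Astrocyte markers were lower in C9-BACexp with crRNA-13, where 11 of 12 were negative with a median of -0.50 and 2 fell (0.639% of all genes), Aqp4 by 1.06 and Aldh1l1 by 0.78 on the log2 scale (edgeR adjusted p = 0.0181 and 0.0263; named after their values were seen). With NTG, where no family member was called, 10 of 12 were negative with a median of -0.54 and 4 fell (2.59% of all genes). Without factors 0 of the 12 were called in either comparison.

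Oligodendrocyte markers were positive for 12 of 12 in crRNA-13 against NTG in C57BL/6J, with a median of 0.56 (0.21 without factors), 6 at an unadjusted p under 0.05 and 0 called. They summed to 952.4 to 1680 CPM in those crRNA-13 libraries and to 390.6 to 2179 CPM with NTG, so the groups overlapped. Between genotypes they went the other way from the family. With crRNA-13, 11 of 12 had positive log2 fold changes with a median of 0.39. Of these 1, Cnp, was called higher (0.441% of all genes), and it is named after its values were seen. With NTG, 12 of 12 were positive and 11 were called higher (4.01% of all genes). Without factors 0 were called in these comparisons. Over the 27 libraries r of their sum with the family's mean level was 0.07. Total count and EGFP-KASH level had r = 0.40 and 0.26 with the family over the 27 libraries, and EGFP-KASH ran from 22.6 to 54.6 CPM in the C57BL/6J crRNA-13 libraries and from 15.2 to 65.1 CPM in those with NTG. Their part in the result was not tested.

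**Figure D4:**
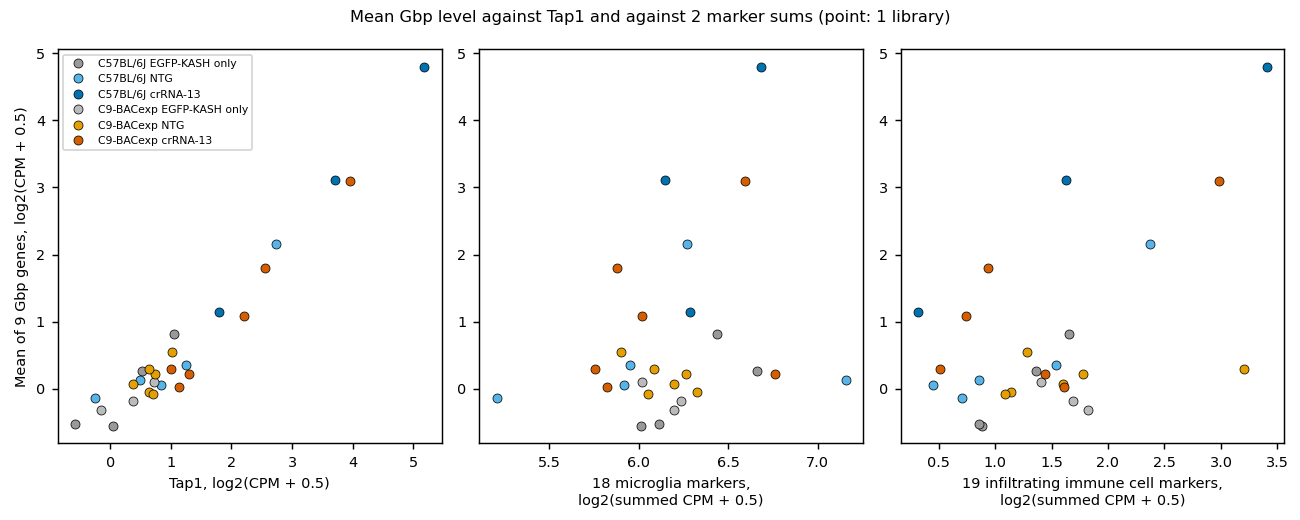
Mean of the 9 Gbp genes, as log2(CPM + 0.5), against Tap1 and against the summed CPM of 18 microglia markers and 19 infiltrating immune cell markers, 1 point per library, coloured by group. Libraries line up along Tap1 (r = 0.9725) and are scattered along the microglia sum (r = 0.28) and, less so, along the immune sum (r = 0.55).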

How the data were processed

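RNA was measured by total RNA sequencing of sorted EGFP-KASH-positive nuclei, 1 library per mouse. The deposited values are expected counts per gene: the authors quantified reads with Salmon 1.10.0 on spliced and unspliced transcripts of GRCm39 plus human C9ORF72 transcripts and EGFP-KASH, kept reads that map to several genes, and summarised to genes in R 4.3.1 with length scaling. Of the deposited values, 36.8% are whole numbers.

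Counts were rounded and genes kept by edgeR's filterByExpr (smallest count 10, smallest total 15), which left 21768 genes. edgeR 4.0.16 (quasi-likelihood, trimmed mean of M-values scaling) was fitted to all 6 groups with 4 factors of unwanted variation estimated from residuals, since the study used 4 factors. Which factor method the study used is not given in the sources used here. The SE was taken as the size of the fitted change over the root of its F statistic. The Benjamini-Hochberg adjustment pooled the crRNA-13 comparison with NTG in C9-BACexp, the one with EGFP-KASH only in C9-BACexp and the genotype comparisons, and ran within each of the other comparisons. The limits were a fold over 1.2 and an adjusted p under 0.05, except for crRNA-13 against NTG in C57BL/6J, where they were 1.25 and 0.01. Fits were tested on simulated counts. Alternatives used R 4.3.3 with DESeq2 1.42.0 and limma 3.58.1.

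Depth ran from 21508829 to 36777972 counts per library. A count of 0 allows 3 counts, for counting error only.

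Named genes were the 9 members; Gbp2b and Gbp11; up to 3 called genes, or else the 2 with the smallest p, of each other list; and the 6 genes outside the family closest to its mean. One gene that this rule names is not reported here. The members and lists were chosen with earlier results of these data known. The labels' growth and treatment protocols describe transfected cells and were not used. The table also holds the authors' mark of genes kept, which was only counted.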

Additional observations from a re-analysis of the deposited data

Results flagged for a closer look

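Of 36 group and gene combinations with 4 to 6 libraries, 14 had 1 library far from the rest by Dixon's ratio. For normally distributed values chance flags about 1 in 20. The ratio was taken on CPM, where every flagged library was a high one, and that rate does not hold for such skewed values. C9-BACexp crRNA-13 replicate 2 stood apart for 7 members: Gbp2 (4.73 CPM), Gbp4 (14.6), Gbp5 (7.18), Gbp6 (7.92), Gbp7 (16.6), Gbp9 (14.3) and Gbp10 (6.30). C57BL/6J NTG replicate 2 stood apart for 6: Gbp2 (2.72 CPM), Gbp3 (5.82), Gbp4 (4.49), Gbp7 (7.18), Gbp9 (5.28) and Gbp10 (1.09). Gbp9 was also high in C9-BACexp NTG replicate 1 (2.43 CPM). The flags come from few libraries and are not independent, since the members move together. The C57BL/6J crRNA-13 and C9-BACexp EGFP-KASH only groups have 3 libraries and were not examined this way.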

How the results depend on the processing

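The median log2 fold change of the members kept its direction under every alternative in 9 of 10 comparisons. In C9-BACexp against C57BL/6J with EGFP-KASH only (0.36, 0 called) it turned in 5 of 18, to -0.12 with no factors, -0.057 with DESeq2 without factors, -0.47 with only the groups compared, -0.13 without C57BL/6J EGFP-KASH only replicate 3 and -0.68 without C9-BACexp EGFP-KASH only replicate 5. The number of members called varied more. In C57BL/6J crRNA-13 against NTG (0 called), DESeq2 with factors called 4, the other p adjustment 3 and the looser limits 3, and leaving out 1 library gave 0 to 4. In C9-BACexp against C57BL/6J with crRNA-13 (2 called), 0 were called with no factors, 2 factors, DESeq2 without factors, limma-trend without factors, the other p adjustment, only the groups compared, and the replicate block with or without factors, while limma-trend with factors called 1 and DESeq2 with factors 4; leaving out 1 library gave 0 to 4. In crRNA-13 against NTG in C9-BACexp (0 called), DESeq2 with factors called 3 and the replicate block with factors 1, and leaving out 1 library gave 0 to 1. In crRNA-13 against EGFP-KASH only in C9-BACexp (2 called), 0 were called with no factors, 2 factors, no filter on low counts, limma-trend without factors, the other p adjustment, only the groups compared and the replicate block without factors, 1 with DESeq2 without factors or the replicate block with factors, and 4 with DESeq2 with factors; leaving out 1 library gave 0 to 3. In the same comparison in C57BL/6J (6 called), 0 were called with no factors, 2 factors, limma-trend without factors, only the groups compared and the replicate block without factors; leaving out 1 library gave 1 to 7. For the genotype difference in response (0 called), DESeq2 with factors and the other p adjustment called 1 each, and leaving out 1 library gave 0 to 1. The cause of these shifts was not tested. For the fits with a library left out and for most of the alternatives, the share of all genes called is not given. Whether a fit with more members called also called more genes in general cannot be read from these counts.

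Some single values turned sign. In crRNA-13 against NTG in C9-BACexp, leaving out 1 library gave -0.14 to 1.42 for Gbp8 and -0.70 to 1.86 for Gbp10 (-0.40 without crRNA-13 replicate 2). Against EGFP-KASH only there, it gave -0.018 to 1.42 for Gbp5 and -1.11 to 3.61 for Gbp10. For the genotype difference it gave -1.60 to 0.50 for Gbp2 (0.0019 without C9-BACexp NTG replicate 5) and -1.22 to 0.61 for Gbp3 (0.21 with C57BL/6J NTG replicate 1 left out and 0.0087 with replicate 6 of C9-BACexp crRNA-13 left out), with 0.057 for Gbp3 under 2 factors. In C57BL/6J crRNA-13 against NTG it gave -0.29 to 0.017 for Pggt1b and -0.23 to 0.016 for Atl2. Among the other single-gene values, 1408 kept their direction and side of the limits, 136 lost a call and 60 gained one.

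Replicate numbers are shared between groups. For libraries of different groups, r of their deviations from the group means exceeded 0.1 in 9 of 48 same-numbered pairs (median -0.00147). Among the other pairs it did so in 21 of 251 (median 2.12e-04). Whether same-numbered libraries share an origin was not tested, and the block rests on numbers alone. With 3 to 6 mice per group, the spread between mice set the errors, and low members rest on few counts in the controls.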
